A study of Mus musculus with 16 samples.

Results

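The genes described here were counted in the injured flexor tendon of one mouse strain and were close to absent from that of the other. A gene was included when it had at least 20 counts in each of the 4 injured libraries of one strain and at most 3 counts in each of the 4 injured libraries of the other. Of the 49568 gene symbols in the count table, 70 met this rule. In 49 of them the counts were in the MRL tendons, and these are called MRL-only genes below. The other 21 were counted in the C57 tendons and are called C57-only genes. The members were thus chosen by their counts in the 8 injured libraries, so the injured values are given as a description and without a test.

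RNA of bulk flexor tendon tissue was sequenced from C57BL/6J (C57) and MRL/MpJ (MRL) mice, in 4 groups of 4 libraries. MRL is an inbred strain that closes wounds with little scarring in several tissues, and C57 is the common laboratory strain. In the injured groups the deep flexor tendon of a hind paw digit was cut part of the way through and taken at 7 days post injury (dpi), and uninjured tendons of both strains served as controls. The methods describe young adult males of both strains bred in-house. In bulk tissue, fewer cells of a type and less RNA per cell cannot be told apart. Totals ranged from 12552424 to 23741648 counts per library, with a median of 23460742.5 in the injured MRL group against 14560249.5 in the injured C57 group, and 3 counts corresponded to between 0.128 and 0.237 CPM, the counts scaled to a common library size.

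A processed pseudogene is a copy of a messenger RNA that was reverse transcribed and inserted elsewhere in the genome, so it has no introns and often differs from its parent gene at few bases. An unprocessed pseudogene arises by duplication of the DNA itself. Short reads are assigned to such a copy or to its parent through differing bases, exon junctions and flanking sequence, and the genome used for counting, GRCm38, was built from C57BL/6J. Whether the use of a C57 genome moved reads of MRL animals between copies was not tested.

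Before the results, 2 uninjured libraries have to be set apart. The library labelled C57 uninjured replicate 4 had over 3 counts of 48 of the 49 MRL-only genes, whereas the other 3 libraries labelled C57 uninjured had over 3 counts of 1, 5 and 1 of them. The library labelled MRL uninjured replicate 4 had over 3 counts of 3 MRL-only genes, against 49, 48 and 49 in the other MRL uninjured libraries. The C57-only genes were reversed in the same way, with 4 of 21 above 3 counts in the library labelled C57 uninjured replicate 4 and 16 of 21 in the library labelled MRL uninjured replicate 4. Over 16122 other genes, the library labelled MRL uninjured replicate 4 had Spearman correlations of 0.9495 to 0.9633 with C57 uninjured replicates 1 to 3 and of 0.9337 to 0.9425 with MRL uninjured replicates 1 to 3. The library labelled C57 uninjured replicate 4 had correlations of 0.8012 to 0.837 with replicates 1 to 3 of both strains, and 12 epidermal markers took 6.77% of its counts against at most 0.0584% in the other 15 libraries. Both libraries therefore went against their labels for these genes. They were kept under their labels, and uninjured tests and counts over the lists are given with and without them. Since these genes themselves showed the conflict, values without both libraries are a description of the remaining ones.

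**Figure D1:**
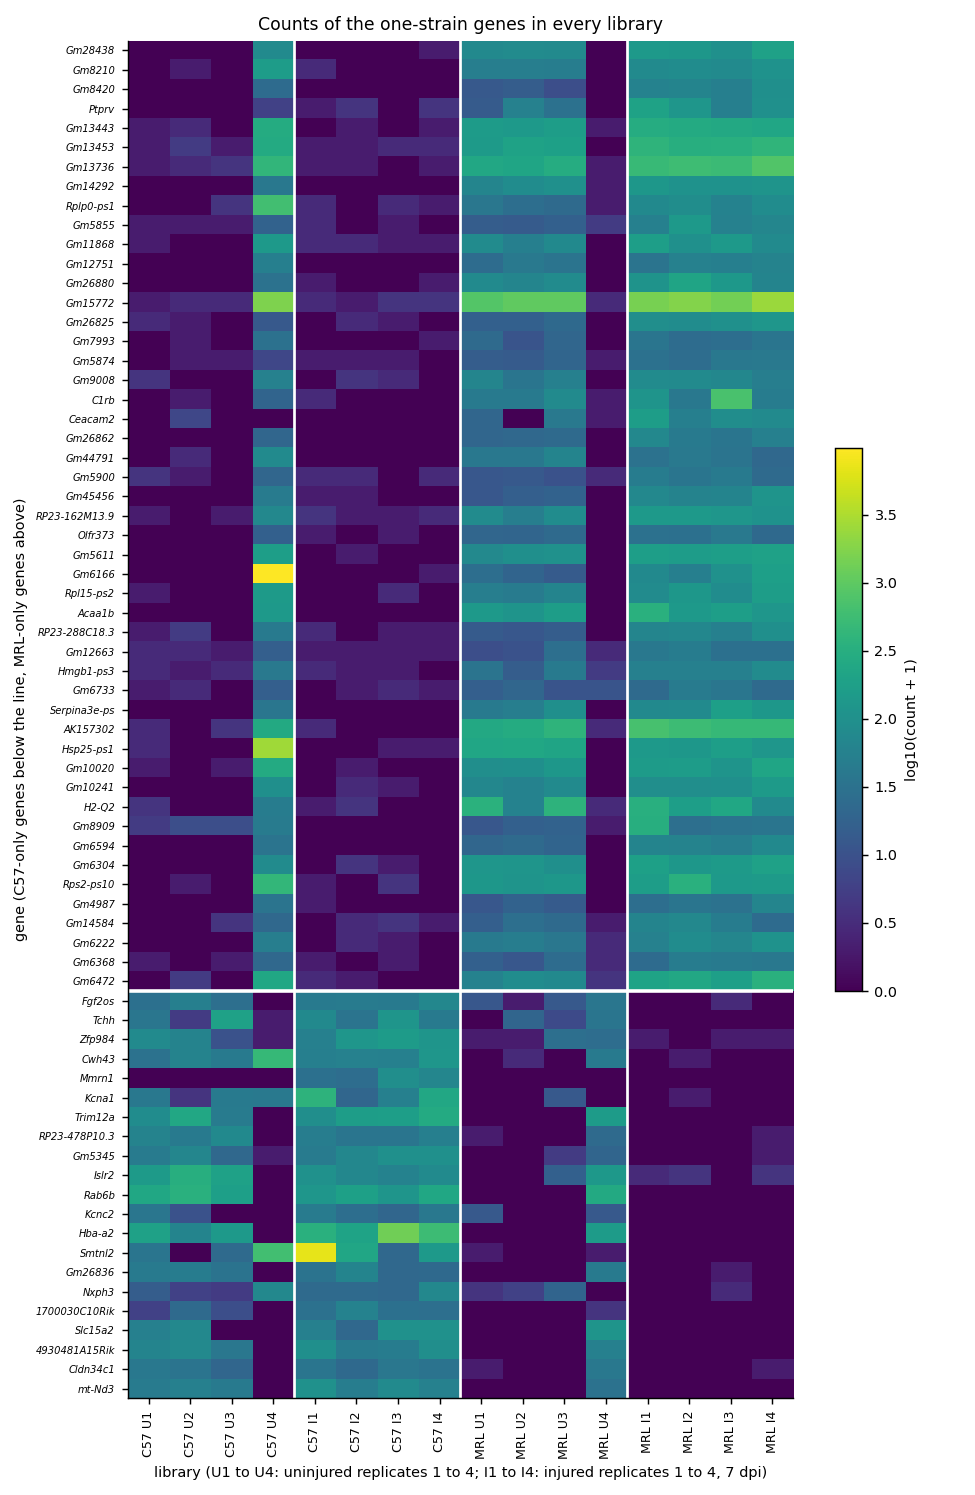
Counts of the 49 MRL-only genes (above the white line) and the 21 C57-only genes (below) in all 16 libraries, as log10(count + 1). Columns are C57 uninjured, C57 injured, MRL uninjured and MRL injured, and the fourth column of each uninjured block shows the pattern of the other strain for most genes.

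Stretches of 70 bases from 4 pairs of near-identical copies show how little sequence can separate a gene of the list from its nearest copy. Other genes of the list differed more, such as Gm6368 from Hsp90ab1 at 162 bases, or had no close copy. Bases that differ between the copies are in capitals, and all sequences are from the GENCODE transcripts of GRCm38, written 5′ to 3′ on the strand of the gene. The first pair is mt-Nd3, which encodes a subunit of respiratory complex I in the mitochondrial genome (chrM:9459-9528, plus strand), and Gm28438, its unprocessed copy in the nuclear genome (chr1:24613050-24613119, minus strand), which differed at 1 of 345 aligned bases.
mt-Nd3: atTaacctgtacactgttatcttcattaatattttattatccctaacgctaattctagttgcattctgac
Gm28438: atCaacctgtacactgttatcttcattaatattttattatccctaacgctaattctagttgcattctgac
The second pair is Rpl26, a protein of the large ribosomal subunit (chr11:68903250-68903319, plus strand, exon 3), and its processed pseudogene Gm15772 (chr5:3236670-3236739, plus strand), with 2 differences in 438 bases, 1 of them shown.
Rpl26: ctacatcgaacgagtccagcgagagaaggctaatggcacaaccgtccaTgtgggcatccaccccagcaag
Gm15772: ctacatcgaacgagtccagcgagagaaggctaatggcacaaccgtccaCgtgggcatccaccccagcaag
The third pair is Hspb1, a small heat shock protein (chr5:135889349-135889418, plus strand, exon 3), and Hsp25-ps1 (chr13:45078510-45078579, minus strand), with 4 differences in 630 bases, 3 of them shown.
Hspb1: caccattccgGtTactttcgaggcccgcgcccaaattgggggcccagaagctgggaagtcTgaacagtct
Hsp25-ps1: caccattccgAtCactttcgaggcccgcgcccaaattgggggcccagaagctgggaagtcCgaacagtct
The last pair is the adult alpha globin genes Hba-a1 (chr11:32284308-32284377, plus strand, exon 3) and Hba-a2 (chr11:32297125-32297194, plus strand, exon 3), with 1 difference in 538 aligned bases.
Hba-a1: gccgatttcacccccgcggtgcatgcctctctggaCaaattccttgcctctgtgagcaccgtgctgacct
Hba-a2: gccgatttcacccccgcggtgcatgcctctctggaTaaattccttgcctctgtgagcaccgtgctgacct

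The MRL-only and C57-only genes were of different kinds. Of the 49 MRL-only genes, 34 (69.4%) were annotated as pseudogenes, namely 29 processed, 3 transcribed processed and 2 unprocessed ones. Among all 11641 genes with at least 20 counts in each injured MRL library, 153 (1.31%) were pseudogenes. The MRL-only genes thus held 22.2% of all pseudogenes counted at that level in the injured MRL tendons, and 25.0% of the 116 processed ones, against 0.0740% of the 10805 protein-coding genes. Only 8 MRL-only genes were protein-coding, and the remaining ones were 2 lincRNA genes, 1 processed transcript (Ptprv), 1 sense-overlapping transcript (Gm26862) and 3 symbols without a single match in the annotation. Of the 21 C57-only genes, 15 (71.4%) were protein-coding, against 93.8% of the 11737 genes with at least 20 counts in each injured C57 library. Of the others, 2 were antisense transcripts (Fgf2os and 4930481A15Rik), 1 was a lincRNA gene, 1 was a processed pseudogene (Gm5345) and 2 had no single match, so that pseudogenes were 4.76% of the list against 0.562% of those genes.

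**Figure D2:**
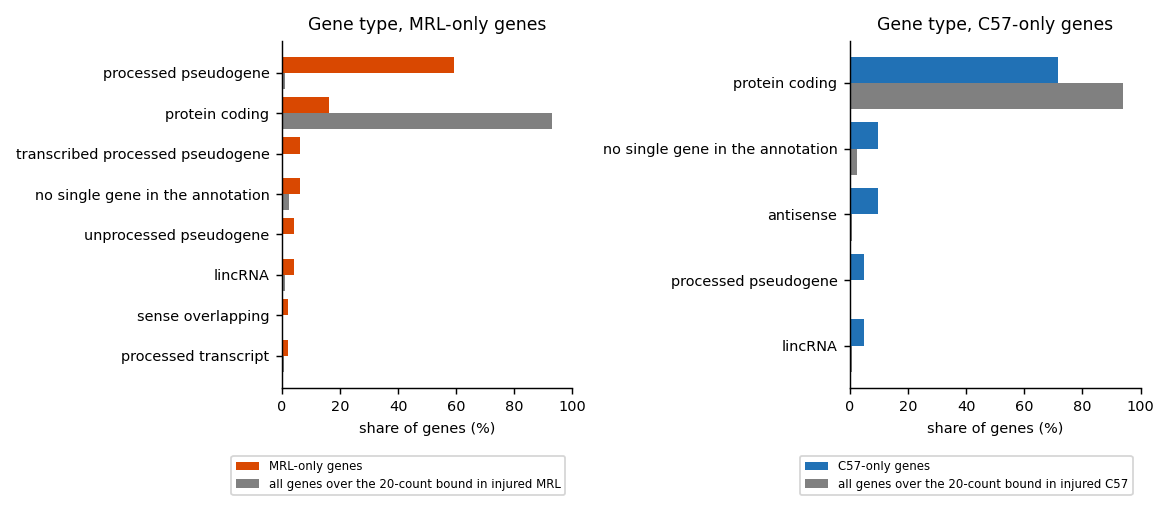
Share of each annotated gene type (x axis, percent) among the MRL-only genes (left, orange) and the C57-only genes (right, blue), with all genes of at least 20 counts in each injured library of the same strain in grey. Processed pseudogenes made up 59.2% of the MRL-only genes and 0.996% of the genes beside them.

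A close copy, defined as a protein-coding gene whose transcript matched at 90% identity or more over at least 80% of the transcript, was found for 37 of the 49 MRL-only genes and for 2 of the 21 C57-only genes. The identity of the 37 ranged from 91.0% to 100% with a median of 98.9%. In 19 of them the copy differed by at most 5 mismatched bases, and the transcripts of Gm13736, Gm12751 and Gm10241 matched Srp9, Polr1d and Sumo2 without a difference. The copy lay on another chromosome in 32 cases. Among all 116 processed pseudogenes counted in injured MRL tendon, 111 had a close copy, with a median identity of 99.05%, and among the 29 MRL-only ones 28 did, with a median of 98.85%. Ribosomal protein genes were the parents of 9 MRL-only genes, a number that was not compared with that of the other pseudogenes. Gm8420, Rpl15-ps2 and Gm10020 all had Rpl15 as their nearest copy.

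Gm15772, the Rpl26 pseudogene, had the highest level of the MRL-only genes. In injured MRL tendons it had 1485, 1764, 1361 and 2462 counts, a level of 84.8 ± 34.3 CPM (SD, n = 4), and in injured C57 tendons 2, 1, 3 and 3 counts. Rpl26 itself had 492, 597, 413 and 750 counts in the injured MRL libraries and 1799, 1726, 2264 and 1496 in the injured C57 libraries. The groups did not overlap for either gene, and the pseudogene held 74.7% to 76.7% of the counts of the pair in injured MRL tendon against at most 0.200% in injured C57 tendon. Summed over the pair, the injured level was 112 ± 44.3 CPM in MRL and 117 ± 19.2 CPM in C57 (SD, n = 4 each), so the groups overlapped once both copies were added. Not every pair overlapped in this way. The injured sums of Gm8210 and its parent Rpl29 were 13.8 to 24.3 CPM in MRL and 51.1 to 62.4 CPM in C57. Those of Gm13443 and its parent Glo1 were 153 to 165 CPM in MRL and 51.8 to 69.9 CPM in C57. The uninjured libraries, which the rule did not use, had 846, 1041 and 1026 counts of Gm15772 in MRL replicates 1 to 3 and 1, 2 and 2 in C57 replicates 1 to 3. The library labelled C57 uninjured replicate 4 had 1664 counts of Gm15772 and a share of 75.4%, and the library labelled MRL uninjured replicate 4 had 2 counts and 0.154%. The uninjured sums of replicates 1 to 3 were 81.1 ± 12.3 CPM in MRL and 125 ± 14.5 CPM in C57 (SD, n = 3 each) and did not overlap.

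AK157302, a gene annotated as protein-coding and 98.955% identical to the iron-sulphur cluster assembly gene Isca1, showed the same division. It had 674, 547, 466 and 468 counts in injured MRL tendons, 2 in injured C57 replicate 1 and 0 in the other injured C57 libraries. Its share of the pair was 62.0% to 65.9% in injured MRL tendon, and the summed level was 39.1 ± 3.99 CPM in MRL and 57.7 ± 41.8 CPM in C57 (SD, n = 4 each). The C57 spread came from replicate 1, at 120 CPM. That library also held 6.07% of its counts in 12 skeletal muscle markers, against at most 0.199% in the other 15 libraries, and the part of muscle RNA in its Isca1 level was not tested.

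Gm13736, whose 253-base transcript matched Srp9 without a difference, had 481, 558, 532 and 805 counts in injured MRL tendons and 1, 1, 0 and 1 in injured C57 tendons. Srp9, a subunit of the signal recognition particle, had 41.4 ± 9.33 CPM in injured MRL and 90.8 ± 11.96 CPM in injured C57 tendons (SD, n = 4 each). Since the annotated transcripts were identical over the whole pseudogene, the assignment of reads between both is uncertain, and so is that of Gm12751 and Gm10241. Gm13453, a pseudogene of the proton pump subunit Atp6v1g1, had 389, 318, 331 and 406 counts in injured MRL and 1, 1, 2 and 2 in injured C57 tendons. Gm13443, a pseudogene of the glyoxalase Glo1, had 298, 271, 257 and 229 against 0, 1, 0 and 1 counts. Both took a small part of their pair, at most 8.29% and 8.27% in any injured MRL library. Most pairs were of this kind, with 21 of the 37 pairs at a share under 10% in all 7 MRL libraries left when the labelled replicate 4 was set aside, and 5 pairs at over 50% (Gm28438, Gm15772, Serpina3e-ps, AK157302 and Gm6594).

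The share of the pair was next compared in uninjured replicates 1 to 3, which the rule did not use. Of the 36 pairs with counts in each of these 6 libraries, the lowest MRL share was above the highest C57 share in 35, the exception being Gm5855 with Eno1b. With all 8 uninjured libraries as labelled it was so in 0 of 36 pairs, and the share in the library labelled MRL uninjured replicate 4 was at or below the highest of the 7 other C57 libraries in 30 of 37 pairs. For processed pseudogenes alone, replicates 1 to 3 were separated in 27 of 28 MRL-only pairs (96.4%), and in 38 of 81 pairs (46.9%) of the other processed pseudogenes counted at the same level in injured MRL tendon, and as labelled in 0 of 28 and 3 of 81. In the library labelled C57 uninjured replicate 4, the share lay within the range of the 7 other MRL libraries, injured ones included, in 32 of 37 pairs. Gm6166, a pseudogene of the epidermal fatty acid binding protein Fabp5, had 9761 counts in that library and 27, 18 and 13 in MRL uninjured replicates 1 to 3, while Fabp5 had 42058 counts there and 162, 61 and 61 in the MRL replicates. The share of Gm6166 was 18.8% in that library and 14.3% to 22.8% in the MRL replicates. Hsp25-ps1 had 2640 counts and a share of 13.9% in the library labelled C57 uninjured replicate 4, against 216 to 237 counts and 14.9% to 15.8% in MRL uninjured replicates 1 to 3.

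**Figure D3:**
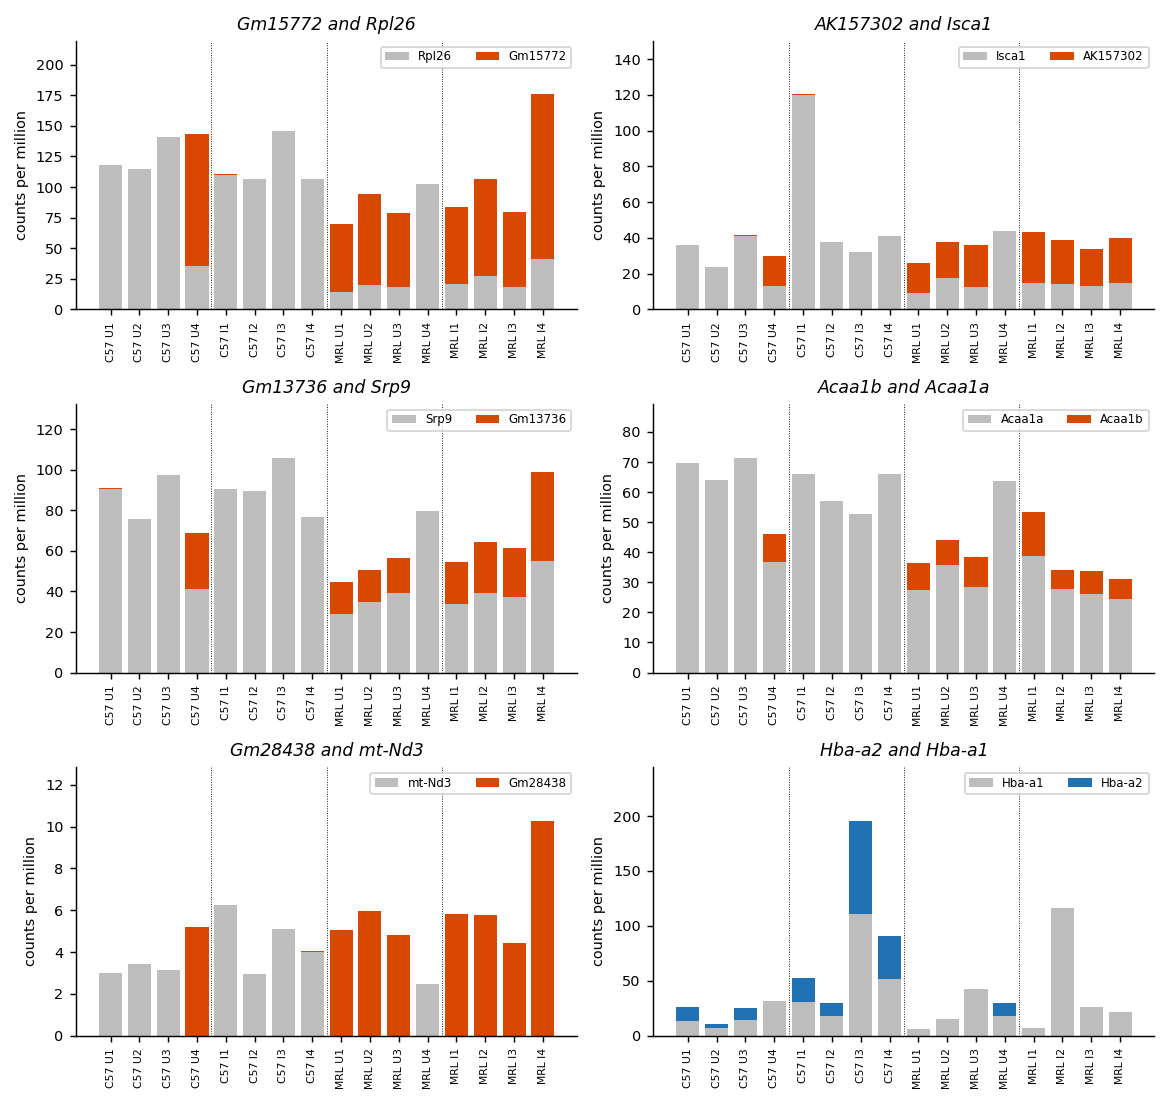
Levels in CPM of 6 pairs of near-identical genes in each of the 16 libraries (U, uninjured; I, injured, 7 dpi), stacked so that the bar height is the sum of the pair; orange and blue parts are the one-strain gene named first in each title, and mt-Nd3 is itself a C57-only gene. The orange part is visible in the MRL libraries and in the library labelled C57 uninjured replicate 4, and is near 0 in the one labelled MRL uninjured replicate 4.

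Most parent genes were counted in both strains, and in 33 of the 37 pairs the copy had at least 100 counts in each of the 8 injured libraries. Exceptions included mt-Nd3, at 0 in all 4 injured MRL libraries, and Gm10282, the copy of Gm6594, at 2, 0, 0 and 1 counts there. Their uninjured levels were tested with edgeR's quasi-likelihood test over all genes, and none of the 32 parent genes tested that were not themselves one-strain genes was called with all 8 libraries as labelled. Without the libraries labelled replicate 4, 9 were higher in C57 and 4 in MRL at an adjusted p under 0.05, where 2.26% and 3.24% of all 14274 genes tested were called in those directions. Among these 32, the largest C57-higher values were those of Rpl26, with an edgeR log2 fold change of MRL over C57 of -2.85 ± 0.168 (SE; adjusted p = 1.15e-05; -1.41 as labelled), and Rpl29, a further ribosomal protein gene and the parent of Gm8210, with -2.81 ± 0.226 (adjusted p = 8.63e-05; -1.37 as labelled). Parent levels leave out the reads assigned to the copy. For Isca1, 1 of the 9, the sum with AK157302 in replicates 1 to 3 was 33.2 ± 6.35 CPM in MRL and 33.8 ± 9.08 CPM in C57 (SD, n = 3 each). For Rpl29 the sum with Gm8210 was 10.1 ± 1.67 CPM in MRL and 48.1 ± 3.40 CPM in C57. How far the assignment of reads set these calls was not tested. Parents higher in MRL were Glo1, C1ra, the splicing-associated gene Wtap and Eno1b, the last with an edgeR log2 fold change of 5.87 ± 0.232 (SE; adjusted p = 8.26e-07; 0.99 ± 1.73 and 0.901 as labelled). Eno1b, a copy of the glycolytic enzyme gene Eno1, lay outside the rule, with 18, 20, 31 and 32 counts in injured C57 and 2793, 3411, 2550 and 2903 in injured MRL tendons.

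The mitochondrial gene mt-Nd3 and its nuclear copy were found on opposite sides of the rule. mt-Nd3 had 102, 48, 79 and 56 counts in injured C57 tendons and 0 in all 4 injured MRL tendons, and Gm28438 had 137, 127, 98 and 188 counts in injured MRL and 0, 0, 0 and 1 in injured C57 tendons. Each injured library thus held one copy and at most 1 count of the other. In uninjured tendon mt-Nd3 had 45, 53 and 41 counts in C57 replicates 1 to 3 and 0 in MRL replicates 1 to 3, and Gm28438 had 0 and 77, 83 and 81 counts in the same libraries. The library labelled C57 uninjured replicate 4 had 0 counts of mt-Nd3 and 80 of Gm28438, and the library labelled MRL uninjured replicate 4 had 31 and 0. The summed level of both was 3.00 to 3.42 CPM in C57 and 4.81 to 5.96 CPM in MRL uninjured replicates 1 to 3. Of the 13 protein-coding genes of the mitochondrial genome, 5 had at most 1 count in every library, and 4 of those (mt-Co2, mt-Atp6, mt-Co3 and mt-Nd4l) were 100% identical to an annotated nuclear copy over 98.99% to 99.87% of their length, whereas mt-Nd1, with no copy found, had 12153 to 44470 counts. The fifth, mt-Atp8, was at 0 with a nearest copy of 81.4% identity, and mt-Co1, with a full-length copy of 97.6% identity, had 11960 to 64285 counts.

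Of the 8 protein-coding MRL-only genes, 4 had a close copy, against 0.787% of the 10801 protein-coding genes with a transcript at that level. Acaa1b, a peroxisomal thiolase of fatty acid oxidation, had 345, 143, 170 and 126 counts in injured MRL and 0 in every injured C57 tendon, and its paralog Acaa1a (96.6% identity) was counted in all libraries. Acaa1b was also at 0 in C57 uninjured replicates 1 to 3, and at 139, 114 and 166 counts in MRL uninjured replicates 1 to 3. The library labelled C57 uninjured replicate 4 had 143 counts and the one labelled MRL uninjured replicate 4 had 0. The mean of Acaa1b in MRL replicates 1 to 3 was at least 39.4-fold higher than 3 counts in the shallowest of C57 replicates 1 to 3. As labelled, its edgeR log2 fold change was 1.48 ± 1.95 (SE; adjusted p = 0.860). Acaa1a was higher in C57, with an edgeR log2 fold change of -1.17 ± 0.163 (SE; adjusted p = 0.00255) without both libraries labelled replicate 4 and of -0.65 ± 0.318 (SE; adjusted p = 0.649) as labelled. C1rb, a copy of the complement protease gene C1ra (97.9% identity), had 115, 38, 708 and 47 counts in injured MRL and 2, 0, 0 and 0 in injured C57 tendons. Its MRL level rested on replicate 3, in which it made up 46.8% of the pair, against 5.14% to 6.85% in the other 3 injured MRL libraries. 

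The major histocompatibility genes on the list were H2-Q2 and Gm8909. H2-Q2, a class I gene of the Q region (chr17:35342242-35346762, plus strand), had 324, 173, 233 and 79 counts in injured MRL and 1, 3, 0 and 0 in injured C57 tendons. It had 347, 58 and 373 counts in MRL uninjured replicates 1 to 3 and 3, 0 and 0 in C57 uninjured replicates 1 to 3, and these groups did not overlap. The libraries labelled replicate 4 had 2 counts in the MRL and 46 in the C57 group. Its relative H2-Q6 had 47, 24, 3 and 148 counts in injured C57 and 55, 72, 19 and 21 in injured MRL tendons, so this gene was counted in both strains. H2-Q1 was at 0 in all 4 injured C57 libraries but missed the bound of 20 with 161, 38, 36 and 8 counts in injured MRL. H2-Q10 missed the bound of 3, with 8, 0, 0 and 0 counts in injured C57 against 194, 118, 115 and 41 in injured MRL. H2-Q7 was counted in both, with 16, 30, 7 and 29 counts in injured C57 and 356, 202, 293 and 70 in injured MRL tendons. Gm8909, whose nearest coding gene was the class I gene H2-D1 (90.8% identity over 67.9% of the transcript), had 320, 28, 32 and 34 counts in injured MRL and 0 in injured C57 tendons. In uninjured tendon Gm8909 had 11, 16 and 17 counts in MRL and 4, 8 and 8 in C57 replicates 1 to 3, an edgeR log2 fold change of 1.02 ± 0.935 (SE; adjusted p = 0.642) without both libraries labelled replicate 4 and of -0.58 ± 1.05 (SE; adjusted p = 0.903) as labelled, so before injury it was counted in both strains.

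Ceacam2, a cell adhesion gene of the carcinoembryonic antigen family, had 163, 51, 89 and 81 counts in injured MRL and 0 in injured C57 tendons, but 20, 0 and 40 in MRL and 0, 6 and 0 in C57 uninjured replicates 1 to 3, with 1 and 0 in the libraries labelled MRL and C57 uninjured replicate 4. It was the single MRL-only gene whose uninjured replicates 1 to 3 overlapped between strains. Its paralog Ceacam1 had 270, 221, 248 and 190 counts in injured C57 and 196, 69, 115 and 133 in injured MRL tendons, so the paralog was counted in both. Gm9008, 99.053% identical to the ring finger gene Rnf26, had 82, 79, 69 and 49 counts in injured MRL tendons, and the olfactory receptor gene Olfr373 had 30, 29, 40 and 22.

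Of the C57-only genes, 2 of 21 had a close coding copy, namely Hba-a2 and Gm5345. Smtnl2, a smoothelin-like gene, had the highest mean level, 113 ± 209 CPM (SD, n = 4), which rested on 1 library. It had 6953, 229, 21 and 141 counts in injured C57 tendons and 0 in all injured MRL tendons, and the library with 6953 was C57 replicate 1, the library with the muscle markers. Kcna1, a voltage-gated potassium channel, had 375, 20, 54 and 245 counts in injured C57 and 0, 1, 0 and 0 in injured MRL tendons, so replicate 1 was again the highest. Muscle markers took 0.199%, 0.00111% and 0.00111% of counts in injured C57 replicates 2, 3 and 4, and the part of muscle RNA in the levels of both genes was not tested.

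Rab6b, a Golgi-associated GTPase of the Rab family, had counts in one strain throughout, apart from the libraries labelled replicate 4. It had 122, 182, 120 and 239 counts in injured C57 and 0 in every injured MRL tendon. Before injury it had 235, 336 and 175 counts in C57 replicates 1 to 3 and 0 in MRL replicates 1 to 3, with 0 in the library labelled C57 uninjured replicate 4 and 268 in the one labelled MRL uninjured replicate 4. Its edgeR log2 fold change was -1.25 ± 2.12 (SE; adjusted p = 0.899) as labelled and -10.99 ± 0.752 (SE; adjusted p = 0.00017) without both. Its mean in C57 replicates 1 to 3 was at least 78.6-fold higher than 3 counts in the shallowest of MRL replicates 1 to 3. Trim12a, a tripartite motif gene related to the retroviral restriction factor Trim5, had 93, 168, 169 and 269 counts in injured C57 tendons, and 0 in every injured MRL library and in MRL uninjured replicates 1 to 3, but 151 in the library labelled MRL uninjured replicate 4. Its neighbour in the family, Trim12c, was counted in both strains, with 56, 56, 29 and 61 counts in injured C57 and 153, 84, 103 and 189 in injured MRL tendons.

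Hba-a2, an adult alpha globin gene of red blood cells, had 345, 203, 1323 and 550 counts in injured C57 and 0 in all 4 injured MRL tendons. Hba-a1 had 505, 285, 1713 and 723 counts in injured C57 and 165, 2567, 579 and 400 in injured MRL tendons, and the beta globin gene Hbb-bs had 1078, 571, 3875 and 1543 against 211, 3789, 931 and 369. Globin RNA was thus present in both strains and varied widely between animals, and in injured C57 tendons the share of Hba-a2 in the alpha globin pair was 40.6% to 43.6%. In uninjured tendon the share was 48.3%, 36.3% and 44.1% in C57 replicates 1 to 3, 0% in MRL replicates 1 to 3, 40.5% in the library labelled MRL uninjured replicate 4 and 0% in the one labelled C57 uninjured replicate 4.

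Islr2, a membrane protein gene with leucine-rich repeats, had 104, 70, 58 and 79 counts in injured C57 and 2, 3, 0 and 3 in injured MRL tendons. It had 149, 318 and 194 counts in C57 uninjured replicates 1 to 3 and 0 in the library labelled replicate 4, against 0, 0, 16 and 134 in MRL uninjured replicates 1 to 4, and its edgeR log2 fold change was -1.97 ± 1.81 (SE; adjusted p = 0.798) as labelled and -5.48 ± 1.02 (SE; adjusted p = 0.0129) without both libraries labelled replicate 4. Cwh43, a gene of lipid anchor remodelling, had 52, 56, 54 and 126 counts in injured C57 and 0, 1, 0 and 0 in injured MRL tendons. It was 1 of 4 C57-only genes counted in the library labelled C57 uninjured replicate 4, at 469 counts, beside Smtnl2 at 601, the neuropeptide-like gene Nxph3 at 73 and Kcna1 at 40. Since that library also held the epidermal markers given above, the part of epidermal RNA in these 4 values was not tested.

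Other C57-only genes were counted in some uninjured libraries of both strains, or in none. Mmrn1, a multimerin of platelets and endothelium, had 29, 26, 92 and 68 counts in injured C57 tendons and 0 in each of the other 12 libraries, which allows at most 3 counts per library, so its strain difference was seen only after injury. Zfp984, a zinc finger gene, had 54, 122, 153 and 121 counts in injured C57 and at most 1 in injured MRL tendons, but 1, 1 and 28 in MRL and 81, 60 and 9 in C57 uninjured replicates 1 to 3. Tchh, which encodes the hair follicle protein trichohyalin, had 36, 4 and 191 counts in C57 and 0, 19 and 7 in MRL uninjured replicates 1 to 3. Both genes overlapped between strains before injury. The peptide transporter gene Slc15a2 had 53, 21, 105 and 102 counts in injured C57 and 0 in injured MRL tendons, and 54, 71 and 0 counts in C57 uninjured replicates 1 to 3. It was at 0 in MRL uninjured replicates 1 to 3, and at 114 and 0 in the libraries labelled MRL and C57 uninjured replicate 4. Gm5345, the processed pseudogene on this list, had the glycolytic gene Gapdh as its copy at 90.8% identity, held at most 1.63% of the counts of that pair and had 45, 70, 100 and 98 counts in injured C57 tendons. Kcnc2, a potassium channel gene, and Cldn34c1, a claudin family gene, had at most 45 counts in any library. In MRL uninjured replicates 1 to 4 Cldn34c1 had 1, 0, 0 and 39 counts.

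**Figure D4:**
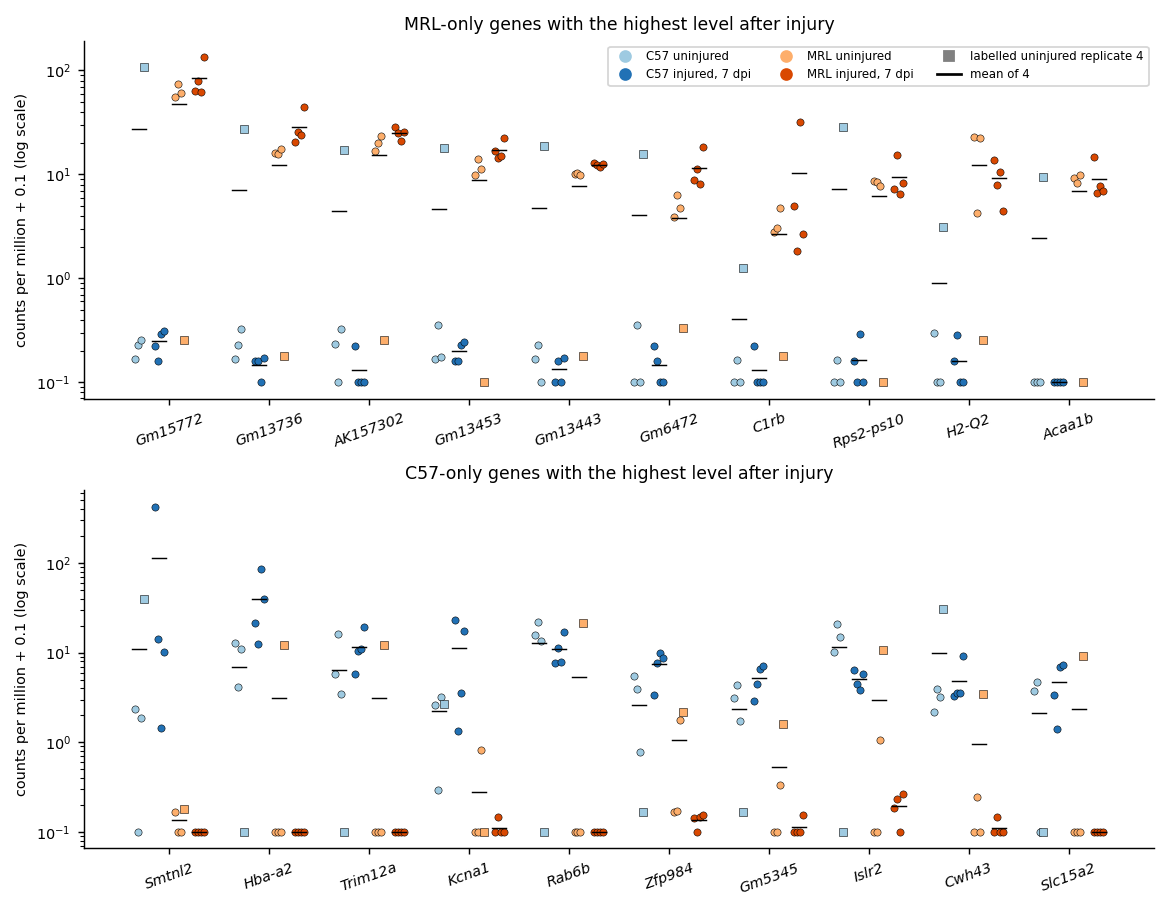
Levels of the 10 MRL-only (top) and 10 C57-only (bottom) genes with the highest mean after injury, as CPM + 0.1 on a log axis, with 1 point per library, squares for the uninjured libraries labelled replicate 4 and a bar at the mean of 4. For the MRL-only genes shown, the C57 square lies above the other uninjured C57 points and the MRL square below the other uninjured MRL points.

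In uninjured tendon, no one-strain gene was called with the 8 libraries as labelled. The edgeR test covered 42 MRL-only and 15 C57-only genes, those past its filter on low counts, and called 0 of them, as it called 0.0% of all 14055 genes in either direction. At an unadjusted p under 0.05, 2 MRL-only and 1 C57-only genes passed, against 7.87% of all genes tested. DESeq2 called 126 genes, 0.317% of the 26497 fitted as higher in MRL and 0.159% as higher in C57, and 0 of the 33 MRL-only and 17 C57-only genes to which it gave an adjusted p. The smallest adjusted p of a member in the edgeR fit was 0.627, that of Gm6166, which was higher in C57 and so opposite to the injured tendons. Gm6166 was also 1 of the 2 MRL-only genes at an unadjusted p under 0.05. The fitted differences still leaned the way of the injured tendons, with 32 of the 42 MRL-only genes above 0 at a median log2 fold change of 0.89 and all 15 C57-only genes below 0 at a median of -1.48, beside a median of -0.03 over all genes. The 10 MRL-only genes below 0 as labelled included Gm6166, at -7.40 ± 3.11 (SE), with 9761 of its uninjured counts in the library labelled C57 uninjured replicate 4.

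As labelled, 9 MRL-only genes had a higher mean level in the uninjured C57 than in the uninjured MRL group (Gm8210, Rplp0-ps1, Gm45456, Gm6166, RP23-288C18.3, Hsp25-ps1, Gm8909, Rps2-ps10 and Gm6472). Rps2-ps10, a pseudogene of the ribosomal protein gene Rps2, had 441 counts in the library labelled C57 uninjured replicate 4 and 0, 1 and 0 in C57 uninjured replicates 1 to 3, against 129, 117, 130 and 0 in the MRL group. Gm6472 had 241 counts in the same library and 0, 4 and 0 in the other 3, against 58, 86, 78 and 3. In both genes the C57 mean rested on that library alone.

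Without both libraries labelled replicate 4, the same test called 32 of 44 MRL-only genes tested, all higher in MRL, and 10 of 15 C57-only genes, all higher in C57. Both libraries were set apart by their counts of these same genes, so the calls without them describe the other 6 libraries and are no independent test of the strains. With 1 further library left out, 22 to 25 MRL-only and 4 to 9 C57-only genes were called (5, 4 and 7 C57-only genes without C57 replicates 1, 2 and 3), and with a replicate block 21 and 5. Over all 14274 genes it called 3.24% as higher in MRL and 2.26% as higher in C57. DESeq2 called 37 of the MRL-only and 11 of the C57-only genes, where it called 3.13% and 2.39% of all genes in those directions. The median log2 fold change was 7.00 for the MRL-only and -6.11 for the C57-only genes, against -0.01 over all genes, and because most of these genes had 0 to 3 counts in 1 strain, such fitted values depend on the prior count and are no bounds. Counted rather than fitted, every MRL library was above every C57 library in 48 of the 49 MRL-only genes (13.1% of all genes tested), and every C57 library above every MRL library in 13 of the 21 C57-only genes (11.8% of all genes tested). With all 8 libraries none of the 70 genes was separated in this way, where 2.97% and 2.05% of all genes were. Gm15772 had the smallest edgeR adjusted p among the members, 8.14e-07, and Gm13736 followed the same direction with a log2 fold change of 6.79 ± 0.502 (SE; edgeR adjusted p = 4.51e-05).

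**Figure D5:**
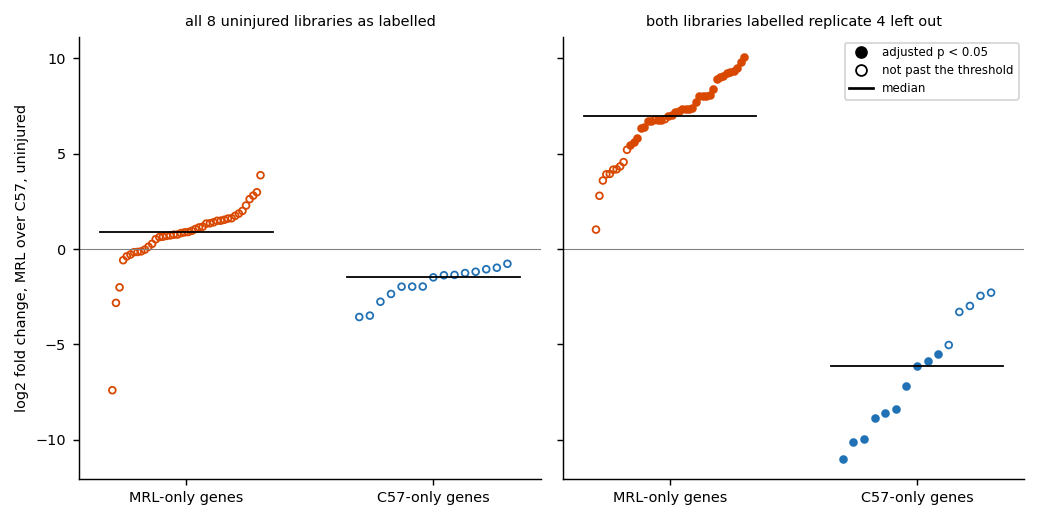
Fitted log2 fold change of MRL over C57 in uninjured tendon for each one-strain gene tested, with all 8 libraries as labelled (left) and without both libraries labelled replicate 4 (right). Filled points passed an adjusted p of 0.05 and black bars are medians (0.89 and -1.48 on the left, 7.00 and -6.11 on the right).

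The bounds of the rule itself were then applied to the uninjured libraries. As labelled, no gene of the whole table met them in either direction (0.0%). In replicates 1 to 3 alone, 47 genes of the table (0.0948%) had at least 20 counts in each MRL and at most 3 in each C57 library, and 27 of those were MRL-only genes. In the opposite direction 19 genes (0.0383%) met the bounds, of which 9 were C57-only genes. By comparison, the rule had selected 0.0989% and 0.0424% of the table in the injured libraries. Of the MRL-only genes, 44 stayed at 3 counts or fewer in C57 uninjured replicates 1 to 3, and 48 had over 3 counts in each of MRL uninjured replicates 1 to 3. For the C57-only genes these numbers were 13 and 16. With all 8 libraries as labelled they were 0 and 3 for the MRL-only and 3 and 2 for the C57-only genes.

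Levels before and after injury were then compared in the strain that had the counts. Within MRL, the ratio of the mean level in the 4 injured libraries to that in uninjured replicates 1 to 3 had a median of 1.46 over the 49 MRL-only genes and ranged from 0.443 for Hsp25-ps1 to 4.73 for Gm8909, and it was within 1.5-fold of 1 for 23 genes. The injured mean of Gm8909 rested on replicate 1, at 13.6 CPM against 1.27 to 1.86 CPM in the other injured MRL libraries. Within C57 the median was 1.51 over the 20 C57-only genes with uninjured counts, from 0.332 for Islr2 to 84.0 for Smtnl2, whose injured mean rested on replicate 1. With all 4 uninjured libraries as labelled the medians were 1.84 and 1.79, and the ratio of Smtnl2 was 10.5. These ratios are descriptions, since the injured libraries chose the genes.

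The one-strain genes were spread over the genome. The 65 genes with a single match in the annotation lay on 20 chromosomes, the mitochondrial one included, and MRL-only genes were found on 17 and C57-only genes on 13 of these. The chromosome with the most MRL-only genes was X, with 5, and the one with the most C57-only genes was 11, with 4. Members within 500 kb of each other were found at 2 places, and each paired genes of opposite direction. Rplp0-ps1 (MRL-only) lay 163 kb from Tchh (C57-only) on chromosome 3, and Smtnl2 (C57-only) lay 422 kb from Gm6733 (MRL-only) on chromosome 11. Other annotated genes within 100 kb of an MRL-only gene were called in the uninjured comparison without the libraries labelled replicate 4 in 13 of 79 cases (16.5%), 11 of them higher in MRL, and those within 100 kb of a C57-only gene in 3 of 75 (4.0%), where 5.5% of all genes were called in either direction. With all 8 libraries 0 of 75 and 0 of 73 were called by edgeR, as were 0 of all genes.

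Among MRL-only genes the lowest counts just inside the bound of 20 were 21 for Gm44791, 22 for Olfr373 and 23 for Gm5900, and just outside it were Serpina3k with 19 and Gm15264 and Gm4353 with 18. At the bound of 3, Gm15772, Rps2-ps10 and Gm6304 were among the MRL-only genes that reached 3 counts in an injured C57 library, and Gm9825, Gm12892 and Gm9855 were left out with 4. Among C57-only genes, Kcna1 and Kcnc2 were just inside with 20 counts and Gm26836 with 21, and Wscd1 with 19, Flt4 with 18 and Cdh4 with 17 were just outside. Islr2, with 3 counts, and Fgf2os and Nxph3, with 2, had the highest counts in an injured MRL library, and 2610507I01Rik and Zfp429, with 4, and Tacr1, with 5, were left out. None of these values was tested.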

How the data were processed

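The authors deposited raw read counts per gene symbol for 16 libraries. The submitters' processing notes name Trimmomatic 0.36, STAR 2.5.2b, featureCounts of Subread 1.5.0p3 and GRCm38.p5; strand setting, annotation version and treatment of multiply mapped reads are not given in the sources used here. The library kit is described differently in the labels and the methods. Members were found by the count rule, and the members and lists were chosen with earlier results of these data known. Uninjured strains were compared with edgeR 4.0.16 in R 4.3.3 (TMM, filterByExpr, robust quasi-likelihood test, Benjamini-Hochberg adjusted p under 0.05) on the deposited counts, separately from the injured libraries. The methods give 4 animals per group and RNA from single tendons. Tested on simulated counts of 14859 genes for 4 against 4 uninjured libraries, edgeR called 184 of 200 changed genes, 88 of those changed 4-fold and 96 of those changed 16-fold. It called 195 genes in all. The simulation gave all genes a single spread, lower than in the real libraries, and held no library with the other strain's pattern. In the real libraries the between-library coefficient of variation was 0.583 as labelled and 0.377 without both libraries labelled replicate 4. These rates therefore do not carry over to the comparison as labelled. Gene types, positions and transcripts were GENCODE M21 (GRCm38), matched by symbol for 65 members, and nearest coding genes came from blastn 2.17.0+. Named genes were the 10 of each list with the highest mean CPM after injury, with members that are protein-coding, of a multigene family, near another member, opposite in mean in the uninjured groups or at the bounds. Alternatives were DESeq2 1.42.0, other scaling factors, other filters, other bounds, a replicate block and leaving out each library. Leaving out both libraries labelled replicate 4 was planned with earlier results known, and its combinations with other settings were added after seeing the data. Counting intervals and the floor of 3 counts cover counting error only.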

Additional observations from a re-analysis of the deposited data

Results flagged for a closer look

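Within each group of 4, libraries far from the others were looked for by Dixon's test at its 95% level, which by chance alone picks out about 1 in 20 groups of normally spread values. That rate need not hold for genes near 0. A group with 0 counts in 3 libraries is always flagged at the remaining one, whatever its level, as for Kcna1 in uninjured MRL. The number of MRL-only genes above 3 counts was 48 in the library labelled C57 uninjured replicate 4 and 3 in the library labelled MRL uninjured replicate 4, each far from the other 3 of its group. For the C57-only genes the number was 4 in the library labelled C57 uninjured replicate 4.

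Among the 20 genes of highest level, 12 stood apart in the uninjured C57 group, in each case at the library labelled replicate 4. It was the highest library for Gm15772 (108 CPM), Gm13736 (27.5 CPM), AK157302 (16.9 CPM), Gm13453 (17.9 CPM), Gm13443 (18.6 CPM), Gm6472 (15.7 CPM), C1rb (1.17 CPM), Rps2-ps10 (28.7 CPM), H2-Q2 (2.99 CPM) and Acaa1b (9.30 CPM), and for the C57-only genes Smtnl2 (39.1 CPM) and Cwh43 (30.5 CPM). In the uninjured MRL group 12 genes stood apart, 11 of them at the library labelled replicate 4. That library was the lowest for Gm13736 (0.0790 CPM), Gm13443 (0.0790 CPM), Rps2-ps10 (0 CPM) and Acaa1b (0 CPM). It was the highest for Hba-a2 (12.1 CPM), Trim12a (11.9 CPM), Rab6b (21.2 CPM), Gm5345 (1.5005 CPM), Islr2 (10.6 CPM), Cwh43 (3.32 CPM) and Slc15a2 (9.003 CPM). Kcna1 stood apart in MRL uninjured replicate 3, at 0.713 CPM.

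Among injured tendons, Smtnl2 stood apart in C57 replicate 1 (426 CPM), the library with 6.07% of its counts in skeletal muscle markers, whose part in this value was not tested. Cwh43 stood apart in injured C57 replicate 4 (8.97 CPM), C1rb in injured MRL replicate 3 (31.9 CPM) and Acaa1b in injured MRL replicate 1 (14.7 CPM).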

How the results depend on the processing

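The number of one-strain genes, 70 by the rule, was 21 (10 MRL-only and 11 C57-only) with at most 0 counts in the other strain, 125 (75 and 50) with at least 10 counts and 39 with at least 50 counts, where 6 were C57-only. With counts scaled to the smallest injured total it was 55 (36 and 19). Leaving out 1 injured library gave 77 to 102 genes, 49 to 55 MRL-only and 22 to 49 C57-only, since fewer libraries can only add genes. C57-only genes numbered 49 without injured C57 replicate 3 and 34 without injured MRL replicate 3. In the uninjured comparison as labelled, edgeR called 0 genes, DESeq2 126 and edgeR without a filter 1. Without both libraries labelled replicate 4, one-strain genes called numbered 42 (48 by DESeq2, 42 with no filter) and all genes called 785 (1406 by DESeq2, 918 with no filter). Taking out 1 further library, in the order C57 replicates 1 to 3 and MRL replicates 1 to 3, left 28, 29, 30, 33, 30 and 32 one-strain genes and 359, 386, 473, 479, 423 and 608 of all genes called. With 1 of the 8 libraries left out, 0 one-strain genes and 0 to 3 of all genes were called (2 without C57 replicate 4, 3 without MRL replicate 4). One-strain genes not overlapping between strains numbered 61 without both, and 0 to 14 with 1 library left out (14 without C57 replicate 4, 12 without MRL replicate 4, 2 without C57 replicate 2 and 1 without MRL replicate 3). Those meeting the bounds numbered 36 without both and 0 to 1 with 1 left out.

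Without both libraries labelled replicate 4, 10 of the 41 MRL-only genes fitted both ways changed direction, and 0 of 15 C57-only genes. They were Gm6166 (-7.40 to 7.26), Rplp0-ps1 (-2.82 to 4.56), Hsp25-ps1 (-2.004 to 8.09), Gm8909 (-0.58 to 1.02), RP23-288C18.3 (-0.38 to 2.80), Gm8210 (-0.15 to 6.69), Gm45456 (-0.12 to 6.81), Rpl15-ps2 (-0.025 to 6.74), Gm6472 and Rps2-ps10. The other settings were run for the 18 genes of highest level tested, of which Gm6472 and Rps2-ps10 changed direction. The log2 fold change of Gm6472, -0.16 as labelled, was 0.0011 with upper-quartile factors and ranged from -0.57 to 5.25 with 1 library left out (5.25 without C57 replicate 4, 0.29 without MRL replicate 4). It was 5.63 without both replicates 4, 5.76 by DESeq2 and 5.65 with no filter, and 5.09, 9.17, 5.14, 5.79, 5.44 and 5.68 with 1 further library taken out in the order above. That of Rps2-ps10, -0.28 as labelled, ranged from -0.69 to 7.62 with 1 library left out (7.62 without C57 replicate 4, 0.19 without MRL replicate 4). It was 8.03 without both, 8.37 by DESeq2 and 8.05 with no filter, and 7.58, 9.92, 7.65, 8.01, 8.03 and 8.07 with 1 further library taken out.

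Replicate numbers did not pair the libraries: the correlations of deviations of same-numbered libraries were -0.1946, -0.0291, -0.09925 and -0.2377. With a replicate block 0 genes were called as labelled, and 26 one-strain genes and 434 of all genes without both libraries labelled replicate 4. Under the block Gm6472 was 4.59 as labelled and 6.19 without both, and Rps2-ps10 5.81 and 8.10.

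Injured MRL libraries were deeper than injured C57 ones. How reads of near-identical copies were assigned was not tested.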
